A study of Mus musculus with 6 samples.

Results

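Fasting induces a small set of genes through the nuclear receptor PPAR-alpha and its coactivator. Of these, 9 were followed in the kidney of mouse pups: Pdk4, Angptl4, Cpt1a, Ppara, Ppargc1a, Lpin1, Acot1, Ucp2 and Fgf21. They were taken by gene symbol from the deposited tables, and all 9 were among the 24422 genes listed. RNA was sequenced from 3 FeD kidneys and 3 control kidneys at postnatal day 15, each kidney a separate library. All pups were wild type C57BL/6, born to C57BL/6 females that were 8 weeks old when they were put on their diets. The FeD dams ate a synthetic iron-deficient diet with 2 to 6 ppm iron and the control dams a diet with 220 ppm iron, through pregnancy and, by the labels, until postnatal day 15. The sample labels start the diets a month before mating, the published methods 3 weeks before. The diets differed in origin as well as in iron, the number of litters is not given in the sources used here, and the diet acted on the whole animal and not on the kidney alone, so that differences between litters cannot be told apart from the diet and P values measure only the spread between these 6 kidneys. The feeding state of the pups when the kidneys were collected is not given in the sources used here either.

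When glucose is scarce, fatty acids released from fat tissue are taken up by liver, muscle, heart and the tubules of the kidney and are oxidized there. PPAR-alpha is a receptor that fatty acids themselves activate. It pairs with a retinoid X receptor, binds DNA at repeats of a short half-site, and turns on genes for the uptake, activation and oxidation of fatty acids, with the product of Ppargc1a as a coactivator. Many of these genes also answer to glucocorticoids and to FoxO factors, which rise in activity when insulin falls, and the proximal tubule, which lives largely on fatty acids, is where the kidney expresses PPAR-alpha most.

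In FeD kidneys 7 of the 9 genes were higher than in control kidneys and none was lower. Angptl4 rose 6.92-fold, Pdk4 3.60-fold, Acot1 2.49-fold and Lpin1 2.09-fold. Ppara, Cpt1a and Ppargc1a rose by less than 2-fold, Ucp2 did not pass the test, and Fgf21 was not detectable at this depth. The test was edgeR's quasi-likelihood test on the raw counts with Benjamini-Hochberg adjustment over the 15145 genes kept by a filter on low counts. Of the 9 genes 8 passed that filter, all with at least 580.0 normalized counts in every kidney of both groups. At an adjusted P under 0.05, 7 of these 8 were higher, where 22.4% of all tested genes were higher and 23.3% were lower (45.7% in either direction). A fold change of at least 2 as well was reached by 4 of the 8, against 4.34% of all tested genes in that direction and 5.69% in the other. In the same 7 genes every FeD kidney lay above every control kidney, as it did in 28.4% of all tested genes, with 29.7% apart in the other direction and 58.1% in either. The median log2 fold change of the 8 genes was 0.79, and that of all tested genes was -0.0018. None of the 8 was lower at an unadjusted P under 0.05 in edgeR, and DESeq2 and limma-voom called none lower.

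Depth was similar in the groups, with 16189041 to 20374327 counts in control libraries and 13732173 to 20853293 in FeD libraries. Levels are given as normalized counts, which are scaled by edgeR's TMM factors to the mean library size, and as reads per exon length and library size (RPKM) where genes are compared with each other. The libraries differed beyond their diet labels in ways that touch the results. Y-linked transcripts were present in control kidney 3 and in FeD kidneys 1 and 2 (Ddx3y at 1537 to 1864 counts), and nearly absent from the others (0 to 11 counts), so that FeD kidney 3 was the only FeD kidney without them. The sex of the pups is not among the labels. The 7 marker genes of the adrenal cortex, the gland next to the kidney, summed to 14158 normalized counts in FeD kidney 2 and to 1292 in control kidney 1, against 144 to 260 in the others. The 6 skeletal muscle markers summed to 384 in FeD kidney 1 and to 22.5 to 53.2 in the others. Markers of proximal tubule, thick ascending limb, collecting duct and podocyte were present in every library, as the kidney label requires.

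Promoter sequence is shown for 4 genes that rose, Pdk4, Acot1 and Lpin1 as the genes called at 2-fold that have a promoter in the table, and Cpt1a because it and Lpin1 are the 2 with a half-site, as the stretch from position -250 to -51 relative to the start that RefSeq gives (table of build GRCm38.p6), located in mm9 by an exact and single match. Capitals mark the half-site AGGTCA, the unit that nuclear receptors such as PPAR-alpha bind as a repeat, read on either strand, and sequences are written 5′ to 3′ on the strand of the gene. Pdk4 is at chr6:5433351-5446309 on the minus strand and its window at chr6:5446329-5446528. Acot1 is at chr12:85350448-85358621 on the plus strand and its window at chr12:85350202-85350401. Cpt1a is at chr19:3323301-3385732 on the plus strand and its window at chr19:3323051-3323250. Lpin1 is at chr12:16542475-16596576 on the minus strand in the GENCODE annotation of mm9, and its RefSeq start lies upstream of that span, with the window at chr12:16617823-16618022. In mm9 the other genes are at chr17:33910695-33918520 (Angptl4, minus strand), chr15:85565413-85633249 (Ppara, plus), chr5:51845488-51958964 (Ppargc1a, minus), chr7:107641846-107650529 (Ucp2, plus) and chr7:52869277-52870860 (Fgf21, minus).
Pdk4: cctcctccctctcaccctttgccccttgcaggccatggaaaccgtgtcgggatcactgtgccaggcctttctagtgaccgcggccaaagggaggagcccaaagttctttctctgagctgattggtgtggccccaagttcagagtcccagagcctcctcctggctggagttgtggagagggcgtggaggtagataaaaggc
Acot1: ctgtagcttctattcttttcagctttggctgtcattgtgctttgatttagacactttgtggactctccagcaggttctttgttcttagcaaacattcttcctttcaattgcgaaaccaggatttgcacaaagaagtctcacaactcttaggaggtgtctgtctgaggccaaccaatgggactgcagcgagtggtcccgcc
Cpt1a: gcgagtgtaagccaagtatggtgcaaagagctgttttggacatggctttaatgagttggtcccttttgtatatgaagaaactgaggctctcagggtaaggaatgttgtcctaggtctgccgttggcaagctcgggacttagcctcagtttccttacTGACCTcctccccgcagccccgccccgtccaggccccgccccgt
Lpin1: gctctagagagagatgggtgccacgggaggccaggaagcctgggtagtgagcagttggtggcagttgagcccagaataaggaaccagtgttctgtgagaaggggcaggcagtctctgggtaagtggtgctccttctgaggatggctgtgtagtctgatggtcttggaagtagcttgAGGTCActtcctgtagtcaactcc

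A promoter was found for 8 of the 9 genes, all except Angptl4. Motifs were searched on both strands of the 300 bases around the start in these 8 and in all 32851 promoters of the table. The full PPAR-alpha element (DR1, a direct repeat of AGGTCA with 1 base between the copies) was in none of the 8 and in 0.0396% of all promoters. The half-site AGGTCA, which is contained in it, was in 2 of the 8, in Cpt1a at -94 to -89 on the minus strand and in Lpin1 at -74 to -69, and in 16.3% of all promoters. Allowing mismatches, the closest match to the 12 fixed letters of the full element had 8 letters in Pdk4, Cpt1a, Ppara, Ppargc1a, Acot1, Ucp2 and Fgf21, a score that 79.8% of all promoters reached. In Lpin1 it had 9 letters, reached by 24.6%. The glucocorticoid response element (AGAACA and its inverted copy, 3 bases apart, in 0.00913% of all promoters), the FoxO element TGTTTAC (3.65%) and the ERR element TCAAGGTCA (0.423%), which overlaps the half-site, were in none of the 8. The hypoxia response core ACGTG, in 19.6% of all promoters, was in Ppargc1a and Fgf21. These are matches of letters in a short window and say nothing of elements farther away.

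Pdk4 encodes a kinase that shuts off the pyruvate dehydrogenase complex and so spares glucose while fatty acids are burned. Its normalized counts were 1016, 1085 and 1005 in the control kidneys and 4544, 4426 and 2227 in the FeD kidneys. The groups did not overlap, and FeD kidney 3 lay far below the other FeD kidneys but still above every control kidney. The mean rose from 1035 ± 43.2 to 3732 ± 1305 (SD, n = 3 each), a log2 fold change of 1.85 with a standard error of 0.24 (edgeR, adjusted P = 0.000627). Tested against a 2-fold change rather than against no change, it still passed (edgeR's glmTreat, adjusted P = 0.0283). The same enzyme step is shared by 3 other kinases. Pdk1 rose (log2 fold change 0.43), Pdk3 fell by 0.54 on the log2 scale, and Pdk2, the most abundant of them per exon length in control kidneys, had a log2 fold change of -0.15 that did not pass (edgeR, adjusted P = 0.152). Of the summed RPKM of the 4 kinases, Pdk4 held 12.9% in control and 36.3% in FeD kidneys.

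Angptl4 encodes a secreted protein that inhibits lipoprotein lipase and promotes the release of fatty acids from fat tissue, and it was the most strongly raised of the 9 genes. Its normalized counts were 610.5, 714.5 and 580.0 in the control kidneys and 5128, 5033 and 3020 in the FeD kidneys. Every FeD kidney was more than 4-fold above the highest control kidney, FeD kidney 3 again being the lowest of its group. The mean rose from 635 ± 70.5 to 4394 ± 1191 (SD, n = 3 each), a log2 fold change of 2.79 with a standard error of 0.20 (edgeR, adjusted P = 5.16e-05), and it passed against a 2-fold change too (glmTreat, adjusted P = 0.000678). Of its relatives, Angptl2 fell by 0.45 on the log2 scale, and Angptl6, near 20 normalized counts, did not pass (log2 fold change -0.58).

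The lipases and partners on which Angptl4 acts were measured as well. Lpl, the lipase that frees fatty acids from circulating triglyceride, had 6272 ± 155 normalized counts in control and 7742 ± 552 in FeD kidneys and rose (log2 fold change 0.30), a call that was lost when control kidney 1 or control kidney 2 was left out (adjusted P = 0.0515 and 0.0606 in edgeR). Gpihbp1, which carries Lpl to the capillary wall, rose from 324 ± 32.6 to 1158 ± 236 (log2 fold change 1.84, edgeR adjusted P = 0.000108). Lipg, endothelial lipase, fell by 1.73 and Lmf1, needed for lipase maturation, fell by 0.50 on the log2 scale. Lipc and Pnlip had too few counts to be tested.

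Acot1 encodes a cytosolic thioesterase that splits fatty acyl-CoA and is a classical PPAR-alpha target. Its normalized counts were 1174, 1123 and 1122 in the control kidneys and 2931, 3062 and 2510 in the FeD kidneys. The control kidneys were nearly identical, and the FeD kidneys lay together well above them. The mean rose from 1140 ± 29.8 to 2834 ± 288 (SD, n = 3 each), a log2 fold change of 1.31 with a standard error of 0.08 (edgeR, adjusted P = 3.09e-05), and it passed against a 2-fold change (glmTreat, adjusted P = 0.0186). Acot1 sits in a cluster of similar genes. Of the 100-base windows of its transcript, 24.5% recur in Acot2, 7.10% in Acot3, 4.98% in Acot5, 2.66% in Acot6 and 0.614% in Acot4. The counts of these genes, and shares taken from them, are uncertain to the extent that shared reads were dropped or misplaced. Acot2, the mitochondrial enzyme, rose too (log2 fold change 0.80), whereas Acot3 and Acot4, peroxisomal enzymes, fell by 0.53 and 0.44 on the log2 scale and Acot6 did not pass (-0.26). The call on Acot3 was lost without control kidney 2 or without control kidney 3 (edgeR, adjusted P = 0.0720 and 0.0593). Acot1 held 45.6% of the summed RPKM of these 5 genes in control and 67.4% in FeD kidneys.

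Lpin1 encodes lipin, a phosphatidate phosphatase of triglyceride synthesis that also works as a coactivator with PPAR-alpha and the Ppargc1a product. Its normalized counts were 923, 978 and 891 in the control kidneys and 2452, 2365 and 1043 in the FeD kidneys. FeD kidneys 1 and 2 stood far above the controls, and FeD kidney 3 lay just above the highest control kidney. The mean rose from 931 ± 44.1 to 1953 ± 789 (SD, n = 3 each), a log2 fold change of 1.07 with a standard error of 0.28 (edgeR, adjusted P = 0.0145). The adjusted P rose to 0.0564 without control kidney 3 and to 0.0506 without FeD kidney 1, so the call on Lpin1 depends on single libraries, and the 2-fold mark was also missed without FeD kidney 2 (log2 fold change 0.93). Against a 2-fold change it did not pass (glmTreat, adjusted P = 1). Of the other lipins, Lpin3 rose (log2 fold change 0.64) and Lpin2, more abundant in counts, had a log2 fold change of -0.08 that did not pass. Lpin1 held 34.9% of the summed RPKM of the 3 lipins in control and 49.5% in FeD kidneys.

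**Figure D1:**
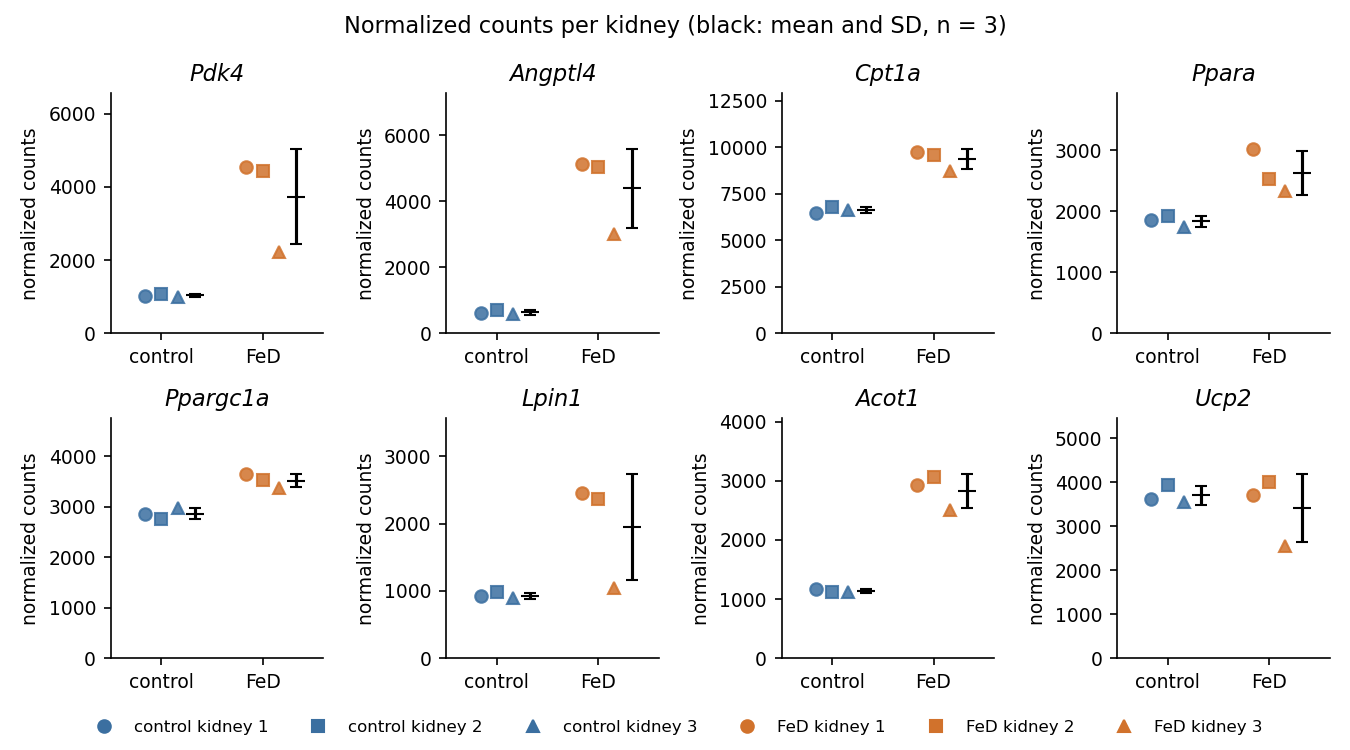
Normalized counts (vertical axes, each from 0) of the 8 tested genes in each of the 3 control and 3 FeD kidneys, with the mean and SD of each group in black. The groups do not overlap in any gene but Ucp2, and FeD kidney 3 (triangle) is the lowest FeD kidney in every panel.

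The receptor, its coactivator and the gate of mitochondrial fatty acid oxidation rose less. Ppara had 1851, 1920 and 1739 normalized counts in the control kidneys and 3020, 2529 and 2327 in the FeD kidneys. Each FeD kidney was above each control kidney, and the log2 fold change was 0.52 with a standard error of 0.10 (edgeR, adjusted P = 0.00343). Of the sister receptors, Ppard fell by 0.37 on the log2 scale and Pparg, with 140 to 205 normalized counts per kidney, had a log2 fold change of 0.01 that did not pass (95% interval -0.35 to 0.37). Ppara thus went from 65.8% to 76.3% of the summed RPKM of the 3 receptors.

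Ppargc1a, the coactivator that also drives mitochondrial biogenesis, had 2859, 2765 and 2966 normalized counts in the control kidneys and 3643, 3538 and 3373 in the FeD kidneys. The groups did not overlap, but the rise was the smallest of the 7 (log2 fold change 0.30, standard error 0.06, edgeR adjusted P = 0.00488). Its relative Ppargc1b fell by 0.82 on the log2 scale, and Pprc1 did not pass (-0.24).

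Cpt1a encodes the liver form of carnitine palmitoyltransferase, which commits long-chain fatty acids to mitochondrial oxidation. Its normalized counts were 6489, 6824 and 6633 in the control kidneys and 9770, 9605 and 8739 in the FeD kidneys. The spread within each group was small next to the gap between them, and the log2 fold change was 0.50 with a standard error of 0.07 (edgeR, adjusted P = 0.00104). Cpt1a was nearly the whole family in both groups, 95.5% of the summed RPKM in control and 95.8% in FeD kidneys. The muscle form Cpt1b did not pass, and Cpt1c rose by 0.43 on the log2 scale with an adjusted P of 0.0411 (edgeR) that lay above 0.05 in 6 of the 15 alternatives tried.

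Ucp2 and Fgf21 showed no rise that passed the test. Ucp2, which encodes an uncoupling protein of the mitochondrial inner membrane, had 3611, 3942 and 3550 normalized counts in the control kidneys and 3713, 4009 and 2541 in the FeD kidneys. FeD kidneys 1 and 2 lay within or close to the control range and FeD kidney 3 below it. The log2 fold change was -0.11 with a 95% interval of -0.46 to 0.23 (edgeR, adjusted P = 0.564), and its sign turned when FeD kidney 3 was left out. Ucp1, the uncoupling protein of brown fat, fell from 821 ± 189 to 119 ± 125 normalized counts (log2 fold change -2.74, edgeR adjusted P = 0.00811), alongside the brown fat markers described below, and the log2 fold change was -4.14 without FeD kidney 3. Fgf21, a hormone that liver secretes in fasting, had raw counts of 0, 1 and 0 in the control kidneys and 0, 1 and 0 in the FeD kidneys. This is under a floor of 3 counts per library, equal to 0.144 to 0.219 CPM and covering counting error only, so no fold change is given and a difference was not detectable. Of the receptors through which Fgf21 can signal, Fgfr1 and Fgfr2 rose (log2 fold change 0.39 and 0.45) and Fgfr3 fell by 0.43 on the log2 scale, a call lost when any kidney but FeD kidney 3 was left out. Klb, the co-receptor that Fgf21 needs, averaged 17.6 ± 4.58 normalized counts in control and 16.8 ± 13.2 in FeD kidneys and did not pass, while Kl, the co-receptor of Fgf23, fell by 1.40 on the log2 scale.

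**Figure D2:**
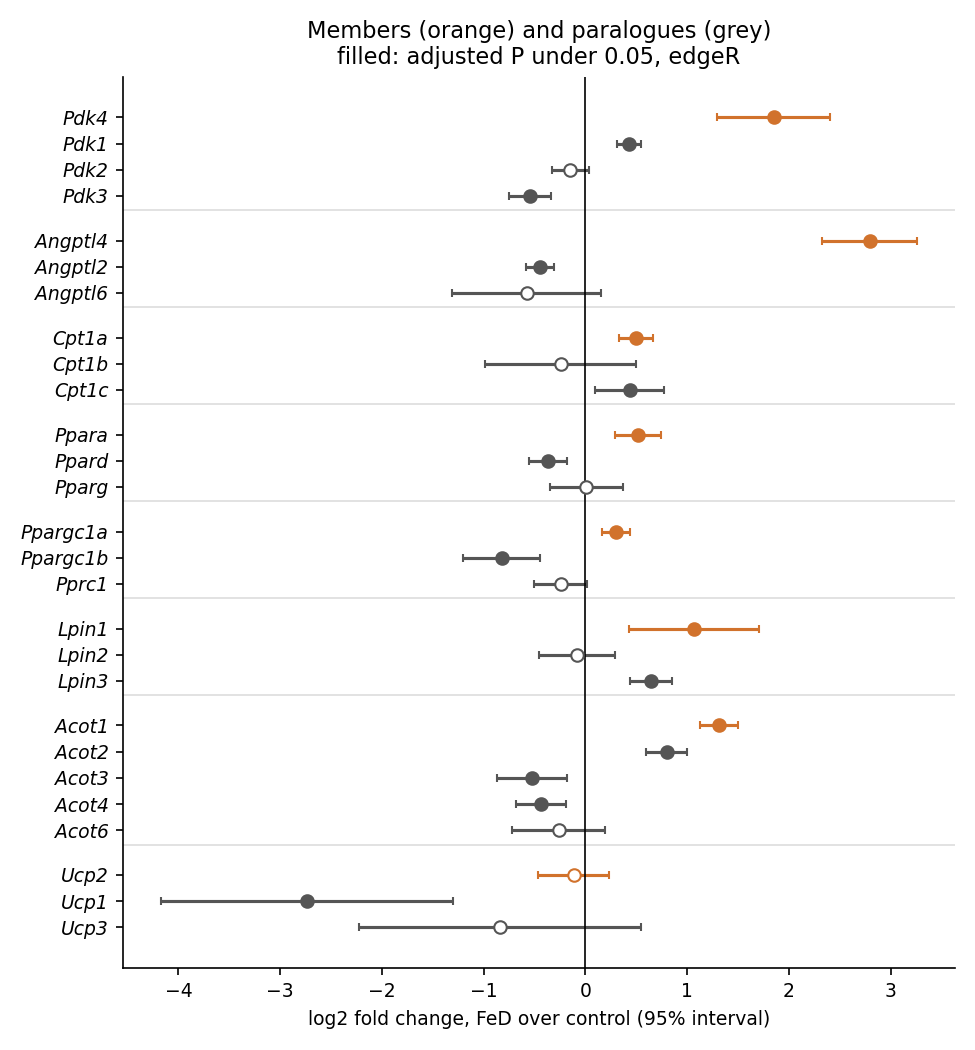
Log2 fold changes, FeD over control (horizontal axis), with 95% intervals of the 8 tested genes (orange) and of tested paralogues (grey), grouped by family, filled where the adjusted P in edgeR is under 0.05. In the families of Angptl4, Ppara and Ppargc1a no paralogue shown rose with the orange gene, whereas Pdk1, Cpt1c, Lpin3 and Acot2 rose with theirs.

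Across all families, 20 of 24 listed paralogues could be tested. Of these 4 rose (Pdk1, Cpt1c, Lpin3 and Acot2), 8 fell and 8 did not pass, and none of them rose 2-fold. Over all tested genes 22.4% were higher, 23.3% were lower and 4.34% rose at least 2-fold, so the share of paralogues that rose was near that background. Their median log2 fold change was -0.31. Acot5, Fgf15 and Fgf23 had too few counts, and Angptl8 was not matched by symbol.

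Per length of exon, the order of the levels changed between the groups. In control kidneys the RPKM fell from Cpt1a (86.5 ± 2.19) over Acot1 (40.7 ± 1.06), Ucp2 (29.6 ± 1.68), Ppara (26.8 ± 1.33), Ppargc1a (24.1 ± 0.846), Pdk4 (16.5 ± 0.688) and Angptl4 (10.8 ± 1.20) to Lpin1 (9.09 ± 0.431), and no neighbours in this order overlapped. In FeD kidneys Cpt1a (122 ± 7.20) and Acot1 (101 ± 10.3) were still on top, followed by Angptl4 (74.8 ± 20.3) and Pdk4 (59.4 ± 20.8), whose ranges overlapped. Ppara (38.3 ± 5.19), Ppargc1a (29.6 ± 1.15), Ucp2 (27.4 ± 6.21) and Lpin1 (19.1 ± 7.71) followed in that order, with overlap between Pdk4 and Ppara, Ppargc1a and Ucp2, and Ucp2 and Lpin1, but not between Ppara and Ppargc1a. Among 13729 tested genes with an exon length, Angptl4 moved from percentile 60.5 to 94.95 of RPKM, Pdk4 from 72.2 to 93.4, Lpin1 from 55.5 to 75.6 and Acot1 from 89.0 to 96.6. Cpt1a was already at percentile 95.3 in control kidneys and stood at 97.1 in FeD kidneys.

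**Figure D3:**
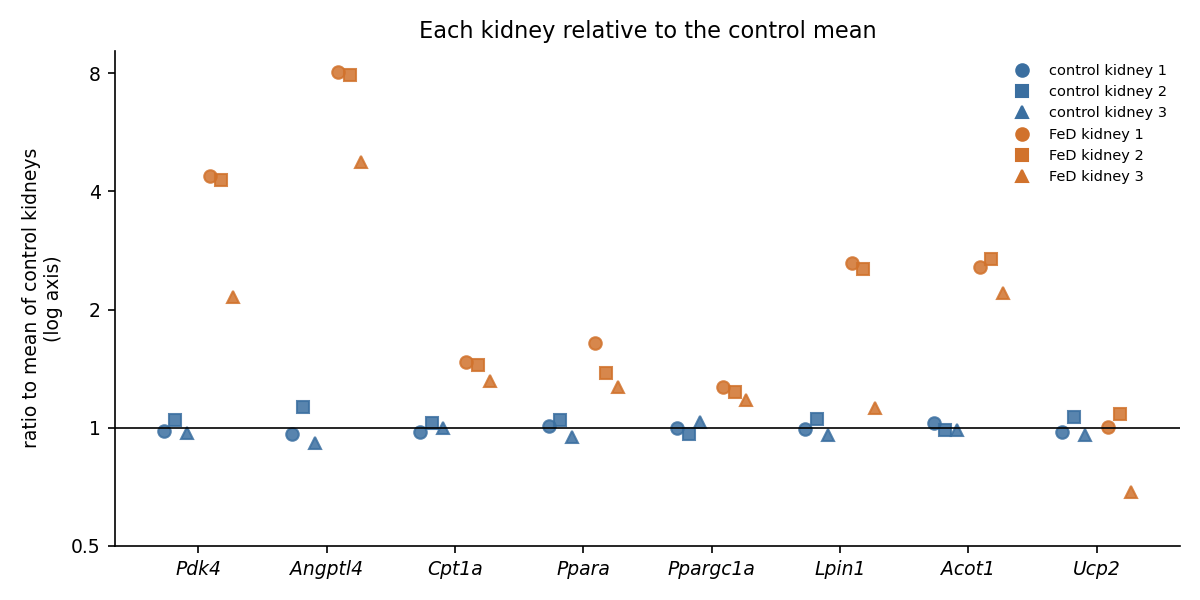
Each kidney's normalized count divided by the mean of the control kidneys (vertical axis, log scale) for the 8 tested genes. Angptl4 reaches 8.08, 7.93 and 4.76 in the FeD kidneys, while Lpin1 in FeD kidney 3 is at 1.12 and Ucp2 in that kidney at 0.687.

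The FeD kidneys differed among themselves, FeD kidney 3 standing apart. In all 7 genes that rose it was the lowest FeD kidney, and the same held for 38.6% of all 3397 genes that rose. Relative to the control mean, Pdk4 reached 4.39 and 4.28 in FeD kidneys 1 and 2 and 2.15 in FeD kidney 3. Lpin1 reached 2.63 and 2.54 in the former and 1.12 in the latter, whereas Ppargc1a varied little, from 1.18 to 1.27. FeD kidney 3 was also the FeD kidney without Y-linked transcripts. Compared among kidneys with such transcripts (1 control, 2 FeD), Angptl4 was 8.76-fold, Pdk4 4.46-fold, Lpin1 2.70-fold and Acot1 2.67-fold higher in FeD. Among kidneys without them (2 control, 1 FeD), the ratios were 4.56 for Angptl4, 2.12 for Pdk4, 1.10 for Lpin1 and 2.19 for Acot1. That all 7 genes were higher in FeD within both subsets follows from the lack of overlap between the groups and adds nothing to it. Ucp2 was higher in FeD among kidneys with Y-linked transcripts (1.09) and lower among those without (0.673). With so few kidneys neither subset allows a test. With the presence of Y-linked transcripts as a term in edgeR, an alternative chosen after seeing the data, the 7 genes still passed, with log2 fold changes of 2.65 for Angptl4, 1.62 for Pdk4, 1.27 for Acot1 and 0.79 for Lpin1 (adjusted P = 0.000111, 0.00103, 6.75e-05 and 0.0399). With 1 FeD kidney without Y-linked transcripts, this difference and anything else particular to that kidney cannot be told apart.

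Markers of tissue around the kidney and of its segments were set beside these values. The counts of markers that passed stand beside 22.4% of all tested genes higher and 23.3% lower (45.7% in either direction). Adrenal markers summed to 258, 14158 and 260 normalized counts in FeD kidneys 1, 2 and 3, where Pdk4 stood at 4544, 4426 and 2227. Without FeD kidney 2 all 7 genes passed (edgeR). Without FeD kidney 1, the one with muscle markers, 6 of the 7 passed, all except Lpin1. The part of adrenal or muscle tissue in these values was not tested. White fat markers, from Adipoq to Car3, were lower in FeD kidneys in 5 of 6 cases and summed to 3735 to 3979 normalized counts in control and 612 to 905 in FeD kidneys. Brown fat markers were lower in 3 of 4 tested cases and summed to 1101 to 1295 and to 324 to 576. Fat attached to the kidney can itself express Angptl4, Pdk4 and Ppargc1a, and its part in their values was not tested. Proximal tubule markers, such as Lrp2 and Slc34a1, were lower in 9 of 10 cases, with sums of 155860 to 167380 in control and 65497 to 72372 in FeD kidneys. Slc34a1 was the largest part of the control sums, with means of 71923 in control and 15405 in FeD kidneys. Lrp2 fell less, from 23092 to 16557, and its mean in FeD kidneys lay above that of Slc34a1. Slc5a2 had the steepest fall of the list, from 6442.5 to 215.8 (log2 fold change -4.89), and Slc5a12 did not pass. Of the 4 markers of the thick ascending limb none passed. Distal convoluted tubule markers were lower in 2 of 3 cases, with sums of 21804 to 27360 and 6200 to 9738, and endothelial markers were lower in 3 of 5 and higher in 1. Collecting duct markers were higher in 3 of 6 cases and lower in 3, with sums of 22759 to 32154 in control and 32253 to 53983 in FeD kidneys. Of 7 liver markers, 6 were tested and 3 were higher, with sums of 1640 to 1755 and 5093 to 5698, carried by Ttr and Serpina1a, while Alb was at 3 to 25 raw counts. In whole kidneys, a change in the number of cells of a type and a change in RNA per cell cannot be told apart, and the part of these shifts in the results was not tested.

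**Figure D4:**
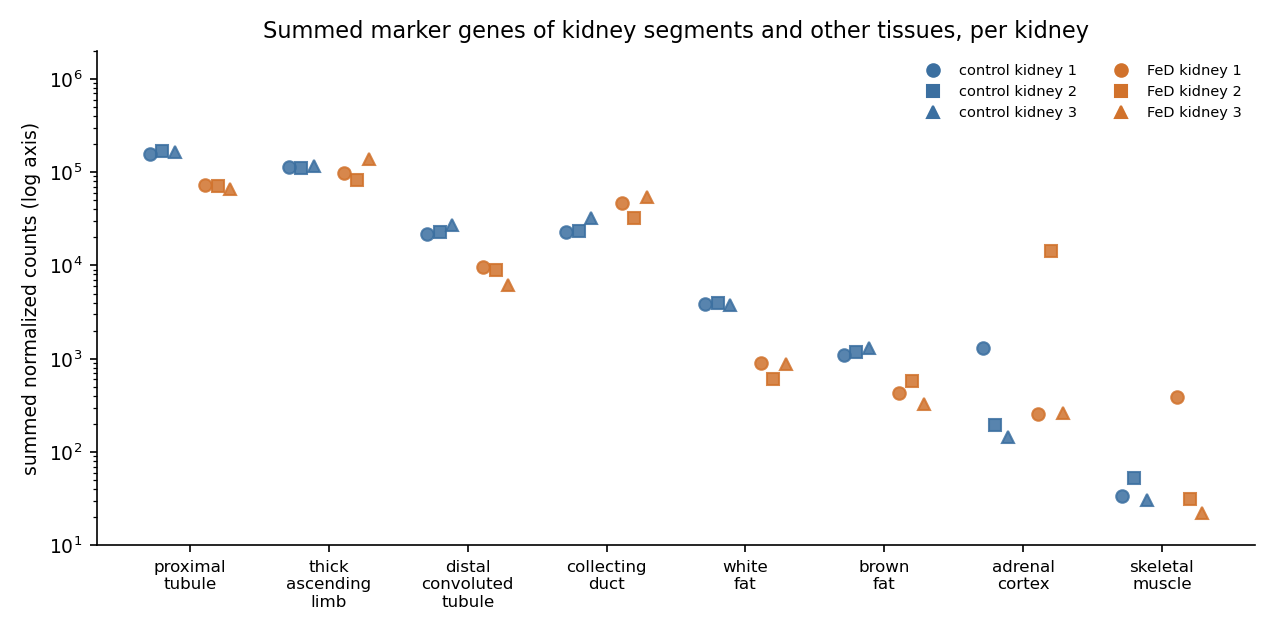
Summed normalized counts (vertical axis, log scale) of marker genes of 4 kidney segments and 4 other tissues in each kidney. Proximal tubule and fat markers are lower in all 3 FeD kidneys, adrenal markers stand out in FeD kidney 2 at 14158, and muscle markers in FeD kidney 1 at 384.

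The partners of PPAR-alpha moved in both directions. Of 20 tested partners and co-regulators 6 were higher, 6 were lower and 8 did not pass, beside 22.4% of all tested genes higher and 23.3% lower, and the median log2 fold change was 0.06. The coactivators Ncoa2 (0.63), Crebbp (0.56) and Ep300 (0.41) and the deacetylase Sirt1 (0.50), which activates the Ppargc1a product, were higher. Esrra, the receptor with which that coactivator turns on genes of oxidative metabolism, went from 2400 ± 255 to 1095 ± 149 normalized counts (log2 fold change -1.13, edgeR adjusted P = 0.000175). The mitochondrial deacetylase Sirt3 fell by 0.54 and the acetyltransferase Kat2a by 0.41 on the log2 scale. Rxra, which forms the dimer with PPAR-alpha, had a log2 fold change of 0.29 that did not pass (edgeR, adjusted P = 0.0906).

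The other PPAR-alpha target genes moved in both directions. Of 60 tested (62 listed), 14 were higher, 20 were lower and 26 did not pass, where 22.4% of all tested genes were higher and 23.3% lower, and the share of higher targets was near that background. Their median log2 fold change was -0.08. The count of higher genes was 23 without FeD kidney 3, with 21 lower. Calls also grew over all genes in that setting, where 7754 of 15375 passed in either direction, against 6924 of 15145 with all 6 kidneys. At least 2-fold changes were reached by 7 upward and 2 downward. Vnn1, which makes cysteamine from pantetheine, had 899 ± 33.8 normalized counts in control and 3556 ± 486 in FeD kidneys, a rise of 1.98 on the log2 scale. Cyp4a14, a fatty acid omega hydroxylase, rose by 1.82, and Ehhadh, an enzyme of the later steps of peroxisomal oxidation, by 1.53 on the log2 scale. FeD kidney 3 was the lowest FeD kidney in 12 of the 14 higher targets, as it was for the 7 genes. Its Ehhadh stood at 7499 normalized counts, where FeD kidneys 1 and 2 had 12209 and 17778 and the controls 3714 to 4765. Downward, Gpd1, which links glycolysis to glycerol phosphate, fell by 1.42, Bdh1, which makes hydroxybutyrate, by 1.37, Acaa2, the last step of mitochondrial beta oxidation, by 0.91 and Cidec, a lipid droplet protein, by 0.89 on the log2 scale.

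The targets were also sorted by where the enzymes work, a grouping made after the values were seen. All 4 omega hydroxylases were higher (Cyp4a10, Cyp4a12b, Cyp4a14 and Cyp4a31), though this cluster holds near-identical copies and its counts are uncertain, and Cyp4a12b averaged 22.8 ± 10.8 normalized counts in FeD kidneys. Of 11 peroxisomal genes 4 were higher (among them Ehhadh, Eci2 and Pex11a), 4 were lower (Acaa1b, Acot8, Abcd3 and Cat) and 3 did not pass. Cat, catalase, fell from 8349 ± 370 to 4716 ± 537 normalized counts. Of 15 genes of mitochondrial beta oxidation downstream of Cpt1a, 1 was higher (Acadl, 0.27), 7 were lower and 7 did not pass. Over all tested genes 22.4% were higher and 23.3% were lower, and no test of one group against another was made.

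Of 40 tested genes on a list of fasting, glucocorticoid and FoxO response genes, 22 were higher, 4 were lower and 14 did not pass. Among all tested genes 22.4% were higher and 23.3% were lower. The median log2 fold change of the list was 0.40. A rise of at least 2-fold was reached by 12 of the 40, against 4.34% of all tested genes. The counts of this list were not among the planned results. Like the other lists, it was chosen with earlier results of these data known. Zbtb16, a transcription factor induced by glucocorticoids, went from 92.8 ± 16.5 normalized counts in control to 1753 ± 160 in FeD kidneys (log2 fold change 4.24, edgeR adjusted P = 3.83e-06). Igfbp1, which binds insulin-like growth factors and rises when insulin is low, had a log2 fold change of 2.50, Fkbp5, which damps the glucocorticoid receptor, one of 2.42, and Ddit4, an inhibitor of mTOR, one of 2.05. Tfeb fell by 0.57, Fbp1 by 0.52 and Nr3c1, the glucocorticoid receptor itself, by 0.32 on the log2 scale (a call lost when any kidney but FeD kidney 3 was left out), and Bcl6, named here after its values were seen because its groups overlapped, by 0.73. The 4 lower calls became 2 when control kidney 1, control kidney 3, FeD kidney 1 or FeD kidney 2 was left out. Pck1 and G6pc, which make glucose in the proximal tubule in fasting, did not pass. Pck1 had 49444 ± 2793 normalized counts in control and 53615 ± 10761 in FeD kidneys. G6pc had 7902 ± 338 in control and 7918 ± 3915 in FeD kidneys, where single kidneys ran from 4013 to 11842.

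**Figure D5:**
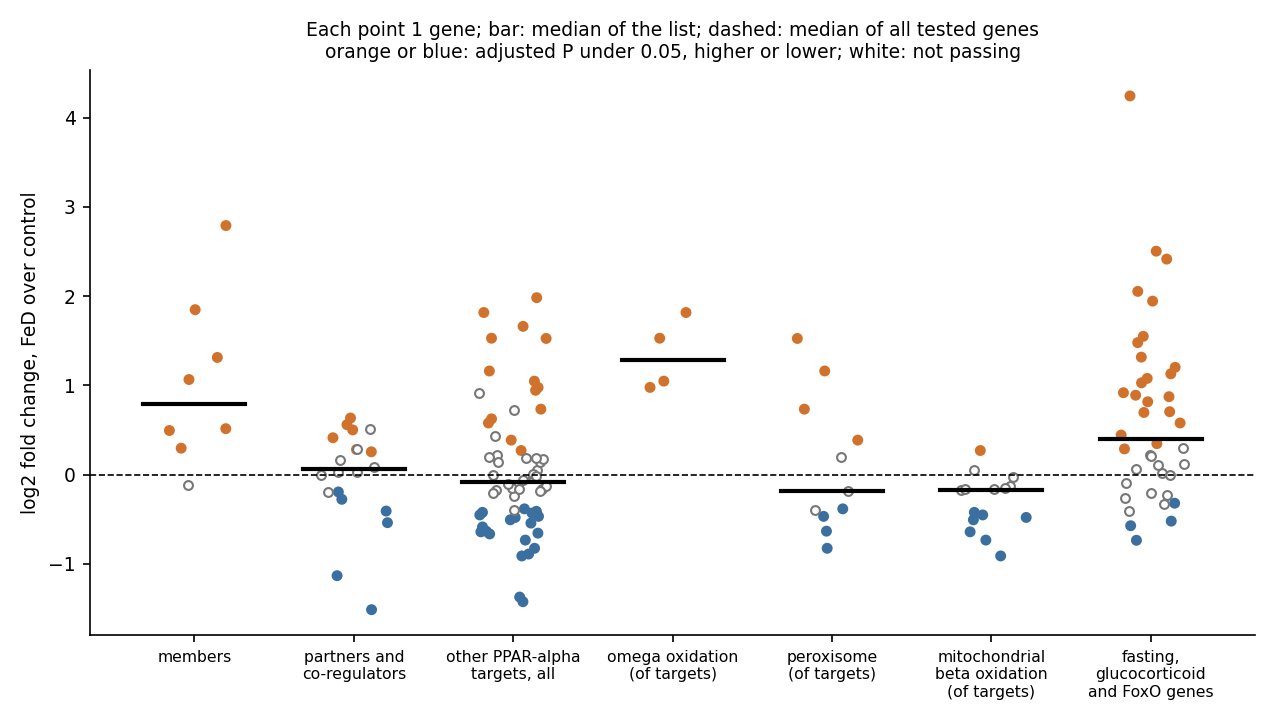
Log2 fold changes, FeD over control (vertical axis), of the 8 tested genes and of the other lists, each point a gene, with the median of each list as a bar and that of all tested genes dashed. The medians are 0.79 for the 8 genes, -0.08 for the other PPAR-alpha targets and 0.40 for the fasting, glucocorticoid and FoxO genes.

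For the 4 genes that rose at least 2-fold, the genes with the most similar course over the 6 kidneys were sought among 12934 genes, by the root mean square distance between log2 levels centred on the control mean. Closest to Pdk4 were Cyp4a14 (distance 0.143), Arxes2 (0.145) and Adamts6 (0.159). Closest to Angptl4 were Serpina3g (0.108), Map3k6 (0.164) and Cdkn1a (0.216). Closest to Lpin1 were Cyp4b1 (0.0813), Pdilt (0.140) and Slc25a33 (0.154), all of which share its low level in FeD kidney 3. Closest to Acot1 were Tsc22d3 (0.0741), the glucocorticoid-induced leucine zipper gene that is also on the fasting list, Arrdc3 (0.0744) and Ifngr1 (0.0840). These distances describe 6 kidneys that share their libraries, and some close matches are to be found among so many genes.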

How the data were processed

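RNA of 6 kidneys was sequenced. Per the labels and the methods, the authors selected polyadenylated RNA, prepared TruSeq libraries, sequenced single-end reads of 100 bases, called bases with CASAVA 1.8.2, trimmed with Trimmomatic, aligned to mm9 with TopHat2 2.0.11 and deposited raw HTSeq counts per gene, without normalization or pooling. The annotation, counting mode and strand setting are not given in the sources used here, so overlapping genes and near-identical copies can lose or exchange reads. None of the 9 genes overlaps exons of another gene in the GENCODE annotation of mm9. The members and lists were chosen with earlier results of these data known.

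The deposited counts were tested in R 4.3.3 with edgeR 4.0.16 (filterByExpr, TMM, glmQLFit and glmQLFTest without covariates), two-sided, with Benjamini-Hochberg adjustment over 15145 genes. A 3 against 3 exact permutation test cannot give a P under 0.1, so P values come from the model. The standard error is the log2 fold change divided by the square root of F. RPKM used union exon lengths. The script was tested on simulated counts. Libraries of a group differed by a chi-square per degree of freedom of 3.77 to 30.4, above sampling noise. The biological coefficient of variation was 0.128. Alternatives were DESeq2 1.42.0, limma 3.58.1 (voom), other size factors and filters, a test against a 2-fold change, the replicate number as a block, each kidney left out, globin and mitochondrial genes left out and, chosen after seeing the data, Y-linked transcripts as a term. Named genes were all 9, their paralogues, the Fgf21 receptors and the lipases, of each other list the 4 strongest in each direction among genes that passed, averaged at least 50 normalized counts and did not overlap, and the 3 nearest genes of each gene called at 2-fold. Genes of each metabolic site were named outside this rule, after their values were seen. Rxra, Pck1 and G6pc, which did not pass, were also named outside it, as was Bcl6. A few genes that this rule names are not reported here.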

Additional observations from a re-analysis of the deposited data

How the results depend on the processing

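The direction and side of the threshold of Pdk4, Angptl4, Cpt1a, Ppara, Ppargc1a and Acot1 were kept in all 15 alternatives run for single genes. The number of the 9 genes that rose was 6 or 7, and the number called at 2-fold was 4 or, through loss of Lpin1, 3: under the test against a 2-fold change, limma-voom, the replicate block, the Y-linked term, and without control kidney 3, FeD kidney 1 or FeD kidney 2. With a kidney left out, the log2 fold change of Ucp2 ranged from -0.22 (without FeD kidney 2) to 0.072 (without FeD kidney 3), a change of sign. In the same way 12 to 23 PPAR-alpha targets were higher, with 23 without FeD kidney 3, and 2 to 5 genes of the fasting list were lower. Without FeD kidney 3, 7754 genes passed over all tested genes, in place of 6924. Of 43 other genes followed singly, 38 kept their call in every alternative, 5 lost it in some (Cpt1c, Acot3, Fgfr3, Lpl and Nr3c1) and 0 reversed. The test against a 2-fold change called 511 of all genes, against 1519. Replicate numbers did not pair the kidneys, since deviations of kidneys with the same number had correlations of -0.162, 9.57e-05 and -0.0348. With the replicate number as a block, 7 of the 9 genes were higher, 3 were called at 2-fold, 13 targets were higher and 20 lower, and over all genes 6444 passed in place of 6924. Globin rows held no counts and no mitochondrial genes were listed, so leaving these out changed no value. Fgf21 was too low for any setting, and at 3 kidneys a group single libraries decide Lpin1.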
